A study of Mus musculus with 2 samples.

Results

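Cholesterol transport and lipid handling was examined at 8 genes, Abca1, Abcg1, Apoe, Nr1h3, Pparg, Npc1, Plin2 and Lpl, in the accessible chromatin of colonic macrophages from Tle4cKO and WT mice. Accessible regions were assigned to a gene when they overlapped its RefSeq span or the 10 kb on either side of it. This gave 123 of 128129 peaks in the Tle4cKO list and 126 of 128737 peaks in the WT list. The 8 genes are among 21883 protein-coding genes with a position on the assembled chromosomes. The genes and the interval were set without reference to peak heights, although results from these lists were known when they were chosen.

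The assay was ATAC-seq, in which the Tn5 transposase cuts and tags DNA that is not covered by nucleosomes. The Tle4cKO library came from male C57BL/6 mice of the genotype Tle4f/f Lyz2-Cre, and the WT library from male C57BL/6 mice of the genotype Lyz2-Cre, so that both carried Lyz2-Cre. The mice were 18.9 weeks old, and the labels name no treatment. Each library pooled colonic cells of 2 mice that were sorted in parallel for CD64, for low Ly6C and against Siglec-F. Lyz2-Cre is active in macrophages and also in neutrophils and some monocytes, so that the deletion is one of the myeloid lineage rather than of colonic macrophages alone. There was 1 library per genotype, so every difference below describes these libraries, has no replicate check and was not tested.

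Macrophages take up cholesterol from lipoproteins and dying cells and release it from the lysosome through NPC1 and its partner NPC2. Surplus sterol is esterified and stored in droplets coated by perilipins such as PLIN2, or passed to lipid-poor apolipoproteins and HDL by the transporters ABCA1 and ABCG1. Oxidised sterols activate LXRα, the product of Nr1h3, which is known to raise transcription of Abca1, Abcg1, Apoe and Lpl, while PPARγ responds to fatty acids and acts upstream of LXRα in human and mouse macrophages. TLE4 is a corepressor of the Groucho family that DNA-bound factors recruit.

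The pileup, which is the authors' own value for the number of fragments stacked at a peak's summit, was lower in the Tle4cKO list as a whole, with a median of 20, than in the WT list, with a median of 28. No scaling between the libraries is recorded. A peak of each list was therefore paired with the highest peak it overlapped in the other, where the choice was mutual, and each ratio of pileups was read against the median ratio of pairs of like summed pileup in 50 bins. Over all 92328 pairs the median Tle4cKO to WT ratio was 0.741. At the targeted gene, Tle4, lay 14 Tle4cKO and 22 WT peaks with highest pileups of 220 and 238, and since the labels do not place the deleted part, these peaks do not check the genotype. All 10 macrophage marker genes had a peak within 1000 bp of a gene end in both lists, with highest pileups of 33 to 191 in Tle4cKO and 55 to 222 in WT. Of 24 marker genes of other cell types, 14 had such a peak in Tle4cKO and 17 in WT, with none in either list at Adipoq, Lep, Cidec, Epx, Prg2, Cd3g and Gpihbp1. The highest pileups of these 24 genes summed to 499 in Tle4cKO and 905 in WT, a ratio of 0.551, against sums of 1179 and 1456 for the macrophage genes, a ratio of 0.81. The gap was wide at Siglecf, with 30 in Tle4cKO and 101 in WT, and at Cd79a, with 71 and 153. Ccr2 had no peak in Tle4cKO and 79 in WT. The gap was narrow at Pax5, with 19 in Tle4cKO and 20 in WT, and at Cd247, with 65 and 75. Epcam had 31 and 36. Sums without Siglecf, Cd79a and Ccr2 were not computed. Like pairs also differed with height. Their ratio was 0.667 at pileups of 17 in Tle4cKO and 38 in WT, and 0.807 at 124 and 180. The cause of the lower ratio of the 24 genes was not tested. The part of cells of other types in the values below was not tested either.

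Most peaks at the lipid genes overlapped a peak of the other genotype. Of the Tle4cKO peaks at the 8 genes, 26 of 123 overlapped no WT peak, or 21.1%, where 21.3% of the Tle4cKO peaks at all protein-coding genes and 23.5% of the whole list did so. Of the WT peaks, 31 of 126 overlapped no Tle4cKO peak, or 24.6%, where the shares were 25.9% at all protein-coding genes and 27.1% in the whole list. Both counts lie near the background and are not a result about these genes. Without Abca1 the shares were 11 of 80 Tle4cKO peaks, or 13.75%, and 18 of 82 WT peaks, or 22.0%. Peaks without a counterpart were mostly low, their median pileup being 13.5 in Tle4cKO and 16 in WT. Of the strong peaks at the 8 genes, which reached the upper quartile of their list (a pileup of 47 in Tle4cKO and 67 in WT), 1 of 27 in Tle4cKO and 0 of 27 in WT was absent from the other list, where 0.313% and 0.518% of strong peaks were absent in the whole lists.

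**Figure D1:**
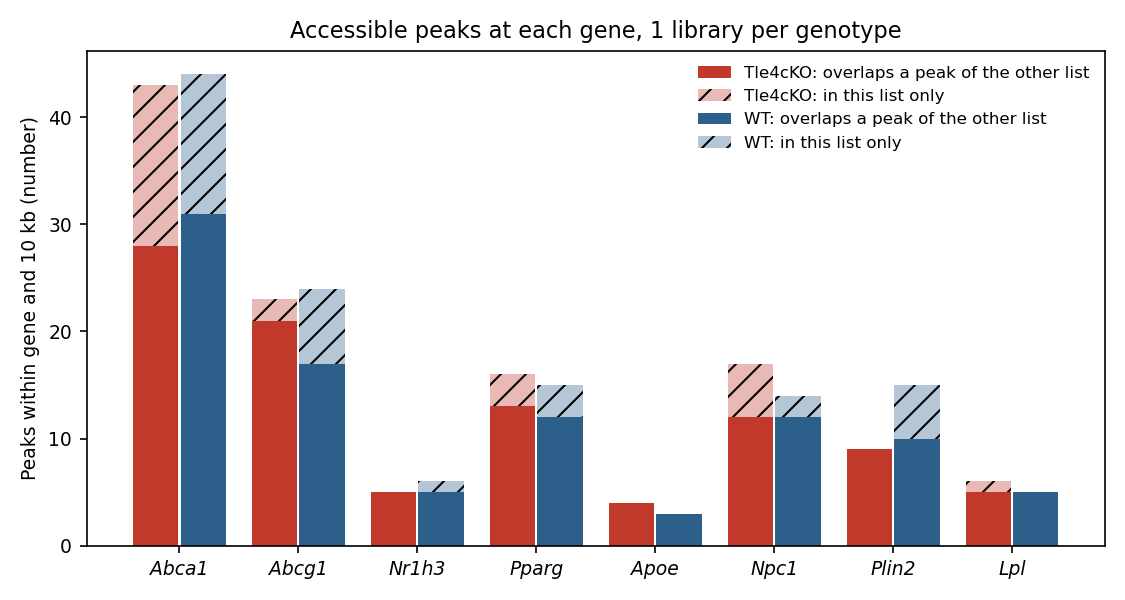
Number of peaks (y axis) within each gene and 10 kb on either side (x axis), with Tle4cKO left of WT; solid parts overlap a peak of the other list and hatched parts do not. Abca1 held the most peaks, 43 in Tle4cKO and 44 in WT, and Plin2 showed 9 in Tle4cKO against 15 in WT.

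The heights of the shared peaks followed the general ratio of the libraries. The 8 genes held 92 pairs with a median Tle4cKO to WT pileup ratio of 0.75, and the pileup was higher in Tle4cKO in 5 of them, where 6.59% of all pairs were. Relative to pairs of like pileup, 49 pairs lay above 0 on the log2 scale, 35 below and 8 at 0, with a median of 0.04. A pair was counted as past the fold when its relative ratio exceeded 1.5-fold in either direction. This held for 1 pair higher in Tle4cKO, at Abca1, where 3.5% of all pairs were past it (2.08% where both pileups were at least 20, as here), and for 1 pair lower in Tle4cKO, at Pparg, where 3.82% were. Where both pileups were at least 20, no pair at the 8 genes was past it downward, and 0.852% of all such pairs were. The counting interval of the ratio, an exact 95% Clopper-Pearson interval that covers counting error only, lay above the ratio of like pairs for that Abca1 pair and covered it for the other 91, where it lay above in 0.683% of all pairs and below in 0.615%. Fragments without molecular identifiers are not independent molecules, so such intervals are too narrow.

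**Figure D2:**
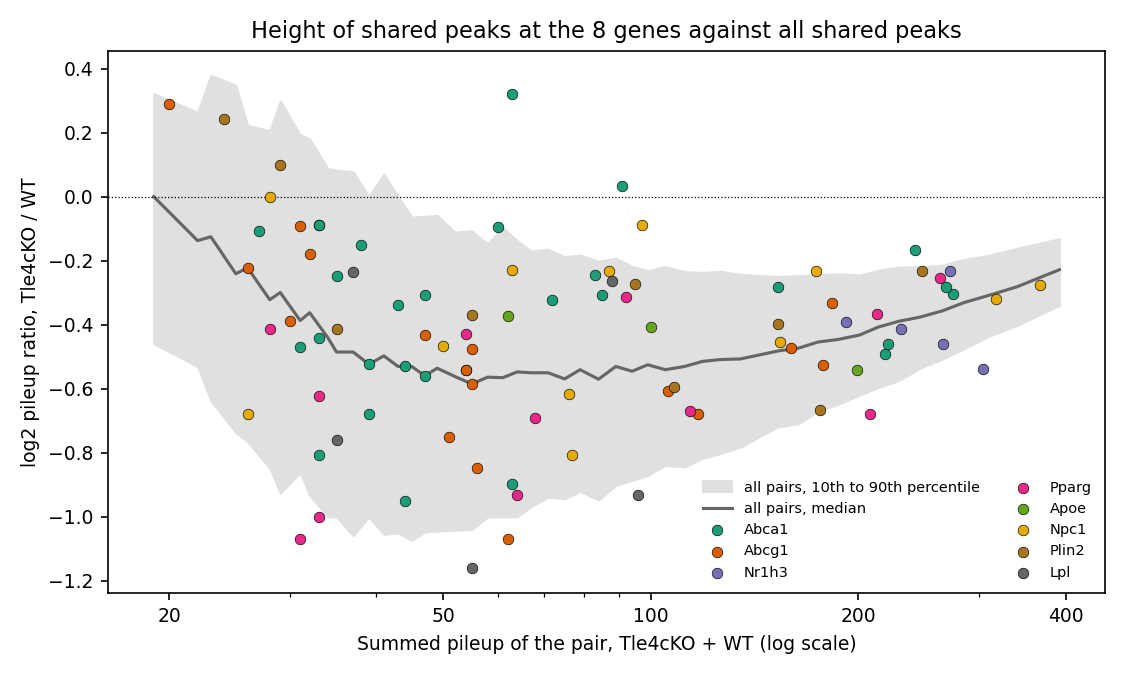
Log2 ratio of the summit pileups, Tle4cKO over WT (y axis), against the summed pileup of the pair on a log scale (x axis) for the pairs of peaks at the 8 genes (points, coloured by gene); the line and the grey band are the median and the 10th to 90th percentile of all 92328 pairs in 50 bins. The points scatter around the line, and the highest point is the Abca1 pair with pileups of 35 in Tle4cKO and 28 in WT.

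Abca1, the transporter that loads cholesterol and phospholipid onto lipid-poor apolipoprotein A-I, had the most peaks of the group. It lies at chr4:53030789-53159988 (mm10) on the minus strand, and its window held 43 Tle4cKO and 44 WT peaks, or 2.88 and 2.95 peaks per 10 kb, where the median protein-coding gene had 0.841 and 0.868. The start-site peak had a pileup of 121 in Tle4cKO and 147 in WT, and its summit lay at the same base, 53159843, in both lists, 52 bp downstream of the listed start. Further strong pairs lay 4.23 kb downstream (pileups of 114 in Tle4cKO and 128 in WT) and 9.93 kb downstream (93 and 128). The highest pair of the locus, 39.4 kb downstream, had pileups of 123 in Tle4cKO and 152 in WT, and its neighbour had 91 and 128. Beyond about 50 kb the gene body carried many narrow, weak peaks, so that the median pileup over the window was 18 in Tle4cKO and 24 in WT and the median width 422 bp and 622.5 bp.

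The start-site window of Abca1 is shown first because a strong peak covers all of it in both lists. It runs 250 bases before to 50 bases after the listed start (chr4:53159846-53160145, minus strand, GRCm38.p6, the assembly behind mm10, from RefSeq) and has 62.7% G and C and 26 CpG. The windows of Plin2, of the first and the last listed start of Pparg and of the first listed start of Apoe are given beside it: Plin2 (chr4:86670010-86670309, minus strand) for the gene with the most uneven peak numbers, Pparg (chr6:115360894-115361193 and chr6:115421816-115422115, plus strand) because one of its starts lies in a strong peak and the other in none, and Apoe (chr7:19699139-19699438, minus strand) because the peak over it was divided in 1 list. Capitals mark every match, on either strand, to the motifs searched, which were AGGTCA alone (the nuclear receptor half-site), AGGTCA repeated in direct order with 4 bases between (the LXR type) or 1 base between (the PPAR type), GAGGAA (a PU.1 core), TGANTCA (AP-1), TTGCNNAA (C/EBP) and CANNTG (the E box).
Abca1 start: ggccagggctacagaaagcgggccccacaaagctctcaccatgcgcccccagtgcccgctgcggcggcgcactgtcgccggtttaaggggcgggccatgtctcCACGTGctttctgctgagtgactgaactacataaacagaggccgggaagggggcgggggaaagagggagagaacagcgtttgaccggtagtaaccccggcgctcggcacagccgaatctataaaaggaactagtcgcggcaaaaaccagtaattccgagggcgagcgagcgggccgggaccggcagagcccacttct
Plin2 start: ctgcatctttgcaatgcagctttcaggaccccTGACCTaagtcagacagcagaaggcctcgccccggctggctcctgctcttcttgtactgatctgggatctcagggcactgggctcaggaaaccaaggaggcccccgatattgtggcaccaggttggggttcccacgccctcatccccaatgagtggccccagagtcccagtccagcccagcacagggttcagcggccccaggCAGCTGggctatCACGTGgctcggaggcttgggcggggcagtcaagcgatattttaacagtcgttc
Pparg first start: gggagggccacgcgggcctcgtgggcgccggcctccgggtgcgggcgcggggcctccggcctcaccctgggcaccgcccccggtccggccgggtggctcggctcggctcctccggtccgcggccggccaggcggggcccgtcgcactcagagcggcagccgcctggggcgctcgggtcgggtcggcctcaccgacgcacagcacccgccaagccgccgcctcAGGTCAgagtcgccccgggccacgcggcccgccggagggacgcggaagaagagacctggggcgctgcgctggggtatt
Pparg last start: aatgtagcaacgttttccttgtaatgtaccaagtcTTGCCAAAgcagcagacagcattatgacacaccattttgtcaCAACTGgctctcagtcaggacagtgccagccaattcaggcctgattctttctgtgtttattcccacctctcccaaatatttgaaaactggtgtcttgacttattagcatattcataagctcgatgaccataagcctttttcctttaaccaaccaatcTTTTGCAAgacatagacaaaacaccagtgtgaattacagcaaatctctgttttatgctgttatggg
Apoe first start: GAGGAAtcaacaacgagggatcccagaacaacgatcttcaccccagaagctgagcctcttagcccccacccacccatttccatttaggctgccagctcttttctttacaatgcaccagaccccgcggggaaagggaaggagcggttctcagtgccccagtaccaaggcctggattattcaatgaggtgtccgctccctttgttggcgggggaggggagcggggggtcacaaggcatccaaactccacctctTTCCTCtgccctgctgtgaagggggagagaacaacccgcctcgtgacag
No match to 1 motif overlapped a match to another in these windows. Neither direct repeat was found in its exact spelling in any of the 10 start windows listed for 5 of the 8 genes. Repeats with altered letters were not searched. The absence of a match therefore does not show that a window, that of Abca1 included, lacks an LXR or PPAR element. In this strict spelling the repeats are rare, with 5 and 13 of 32851 windows of that length holding the LXR and the PPAR type, or 0.0152% and 0.0396%. Among the printed windows the half-site occurred in the first Pparg window, 28 bases before the start, and in the Plin2 window. In the latter it lies in reverse 218 bases before the start, and 16.3% of all windows hold it. The second Pparg window, not printed, held it 9 bases before its start, and also held GAGGAA and an E box. Abca1 and Plin2 each held an E box spelled CACGTG, at 147 and 4 bases before the start, while 72.3% of all windows hold an E box of any spelling. The Apoe window held GAGGAA at its far end and in reverse just after the start, and 28.3% of all windows hold that core. The last Pparg window held 2 C/EBP-type matches, which 10.8% of all windows hold at least once. TGANTCA, present in 7.81% of windows, was in none of them. These matches describe letters and not bound factors.

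At Abca1, 15 of 43 Tle4cKO peaks overlapped no WT peak, or 34.9%, and 13 of 44 WT peaks overlapped no Tle4cKO peak, or 29.5%, beside the 21.3% and 25.9% of peaks at all protein-coding genes. The highest of the Tle4cKO-only peaks, at chr4:53124912-53125164 in the gene body, had a pileup of 50, which places it at the 76.2nd percentile of its list, and the nearest WT peak was 1503 bp away. It is the 1 strong list-only peak of the 8 genes. With a width of 253 bp it was narrow, and of the 333 strong Tle4cKO peaks of at most that width, a limit taken from this peak, 18.3% overlapped no WT peak. The next Tle4cKO-only peak had a pileup of 25, and the highest WT-only peaks had pileups of 28, across the gene end far from the start at chr4:53030122-53031093, and 27. The difference of Tle4cKO-only minus WT-only peaks was 2 over all peaks and -3 among those with a pileup of at least 15. The same minimum cuts deeper into the Tle4cKO list, whose median pileup was 20 against 28 in WT. The change of sign therefore does not show that the excess rested on weak peaks.

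Of the 29 Abca1 pairs, 18 exceeded the like-pileup ratio, 7 fell short of it and 4 equalled it, with a median relative log2 ratio of 0.19. Among the 465 genes with at least 20 pairs, 98.5% had a lower median, and the 10th and 90th percentiles of those genes were -0.09 and 0.11. The value depends on the flanks: over the pairs within the gene span alone the median was 0.08. Of the pairs in the whole window, 12 of 15 lay above 0 where both pileups were at least 20, and 6 of 14 among the rest. The pair past 1.5-fold lay 56.7 kb downstream of the start, with pileups of 35 in Tle4cKO (chr4:53102761-53104002) and 28 in WT (chr4:53102759-53104083), a ratio of 1.25 (0.739 to 2.13) where like pairs had 0.684. A pair near the far end of the gene, with pileups of 46 in Tle4cKO and 45 in WT, stood just inside the limit at a relative fold of 1.49. Among the strong pairs the relative log2 ratio was 0.08 at the start itself, 0.21 at the pair 4.23 kb downstream, -0.05 at that 9.93 kb downstream and 0.03 at the highest pair.

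**Figure D3:**
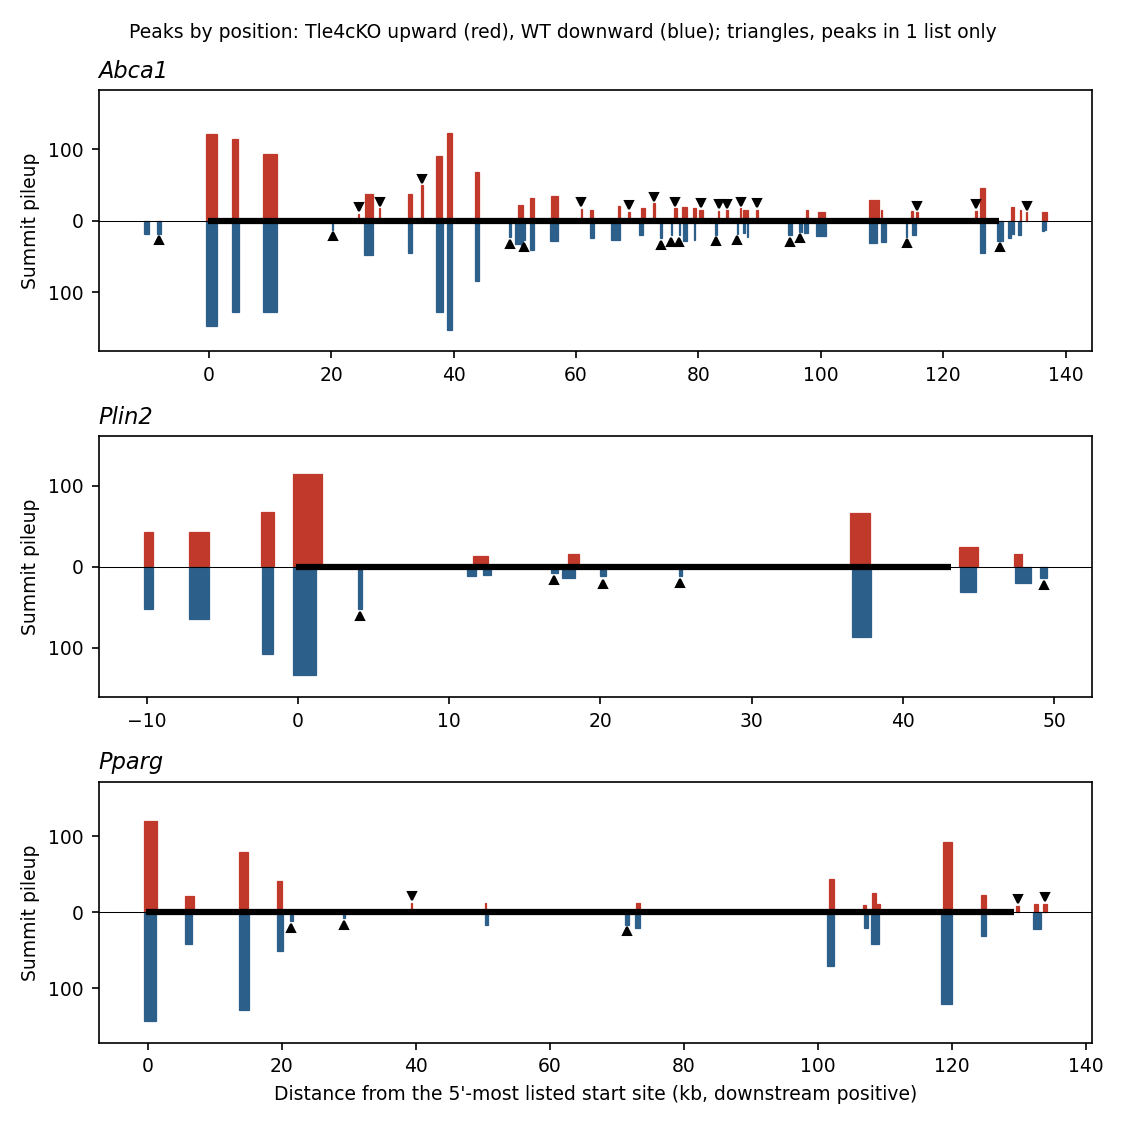
Summit pileup of each peak (y axis, Tle4cKO drawn upward in red and WT downward in blue, on linear scales from 0) against its distance from the start site listed furthest upstream (x axis, kb, downstream positive) at Abca1, Plin2 and Pparg; box widths are peak widths, the black bar is the gene, and triangles mark peaks in 1 list only. The tall peaks face each other at the same positions, and the Tle4cKO-only peak of pileup 50 at Abca1 and the WT-only peak of pileup 52 at Plin2 stand out among the triangles.

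Abcg1, which exports cholesterol to mature HDL, had relative ratios on both sides of 0. It spans chr17:31057694-31117984 and its window held 23 Tle4cKO and 24 WT peaks. The peak across its low-coordinate end had a pileup of 73 in Tle4cKO and 105 in WT, with summits 1 bp apart at 31057998 and 31057997. The highest Tle4cKO peak of the locus, paired in the gene body, had a pileup of 81 in Tle4cKO and 102 in WT. In WT it spanned 2779 bp, whereas 3 Tle4cKO peaks of 555, 698 and 1181 bp with pileups of 36, 38 and 81 covered the same interval. At the 8 genes 6 WT peaks overlapped more than 1 Tle4cKO peak, as 4.27% of all WT peaks did, and 3 Tle4cKO peaks overlapped more than 1 WT peak, as 1.19% of all Tle4cKO peaks did. Of the 17 pairs, 7 lay above and 6 below the ratio of like pairs, with a median relative log2 ratio of 0, and 45.1% of the 1848 genes with 9 to 17 pairs had a lower median. The furthest from the middle was a pair in the low-coordinate flank with pileups of 20 in Tle4cKO and 42 in WT, a ratio of 0.476 (0.265 to 0.829) where like pairs had 0.676. Abcg1 held 2 Tle4cKO-only peaks of pileups 10 and 9 and 7 WT-only peaks of pileups 8 to 20.

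Apoe, the apolipoprotein that macrophages secrete as a cholesterol acceptor, is the smallest of the genes, at chr7:19696244-19701310. Its window held 4 Tle4cKO and 3 WT peaks, all of them shared, and reaches into the neighbours Apoc1 and Tomm40. The main peak spanned 2132 bp in WT with a pileup of 118 and covered the 3 listed starts. In Tle4cKO the same interval was covered by 2 peaks, 1 of 1387 bp with a pileup of 81 over the first listed start and 1 of 690 bp with a pileup of 44 over the last, with the middle start between them. The summits of the higher peaks lay 41 bp apart. The ratio of 0.686 (0.511 to 0.919) stood beside 0.741 for like pairs. The other pairs had pileups of 43 in Tle4cKO and 57 in WT at the gene end beside Tomm40, and 27 and 35 between Apoe and Apoc1, and both lay slightly above the ratio of like pairs. Peaks covered 3601 bp of the window in Tle4cKO and 3797 bp in WT.

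Nr1h3, which encodes the sterol-activated receptor LXRα, had few and high peaks. It is found at chr2:91184061-91202829, beside Madd and Acp2, and 5 Tle4cKO and 6 WT peaks lay in its window. The pileups of the 5 pairs in order along the chromosome were 125, 99, 124, 83 and 112 in Tle4cKO, against 147, 132, 180, 109 and 154 in WT, so that each pair was lower in Tle4cKO. All 5 were strong peaks in both lists. Not all of them lie on Nr1h3 alone: the first has its summits within Madd, the fourth crosses the ends of Nr1h3 and Acp2, and the fifth lies within Acp2. The second pair covers the listed starts, with summits at 91194919 in Tle4cKO and 91194920 in WT. Relative to like pairs the 5 lay between -0.23 and 0.12 on the log2 scale with a median of -0.03 (0.01 within the gene span alone), and 41.0% of the 6825 genes with 3 to 5 pairs had a lower median. The lowest was the pair upstream of the starts, with a ratio of 0.689 (0.544 to 0.871) where like pairs had 0.807. The 1 list-only peak was in WT, with a pileup of 42 at chr2:91187426-91187861 in the gene body, 3122 bp from the nearest Tle4cKO peak.

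Pparg encodes PPARγ, a receptor for fatty acid ligands that is transcribed from several promoters, and the isoform from the downstream promoter is best known from adipocytes. The gene lies at chr6:115360879-115490404 and held 16 Tle4cKO and 15 WT peaks, or 1.07 and 1.0 per 10 kb. The peak at the 2 upstream starts had a pileup of 120 in Tle4cKO and 143 in WT, with widths of 1824 and 1887 bp. The last listed start, at position 115422066, had no peak within 2500 bp in either list. Its window has 40.3% G and C and 2 CpG, against 80.3% and 44 at the first start, as printed above. Of all windows, 45.2% overlapped a peak in both lists, with a median of 60.7% G and C, and 51% a peak in neither, with 47.3%. Both genotypes had a peak at the first start and none at the last.

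Pparg pairs lay mostly on the lower side. Of 12 pairs 8 lay below and 4 above the ratio of like pairs, with a median relative log2 ratio of -0.14 (-0.05 where both pileups were at least 20), and 8.5% of the genes with 9 to 17 pairs had a lower median. The 4 pairs with a pileup under 20 in 1 list or both all lay below. One of them was the pair past 1.5-fold, with pileups of 10 in Tle4cKO (chr6:115467924-115468285) and 21 in WT (chr6:115467942-115468572), a ratio of 0.476 whose interval of 0.2 to 1.06 covers the 0.778 of like pairs. The 8 higher pairs were evenly divided, with 4 above. An internal pair 14.5 kb downstream of the first start had pileups of 80 in Tle4cKO and 128 in WT, and 1 near the far end had 93 and 120. The relative log2 ratio was -0.27 at the internal pair and 0.04 near the far end. Each list held 3 peaks without a counterpart, with pileups of at most 13 in Tle4cKO and 16 in WT.

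**Figure D4:**
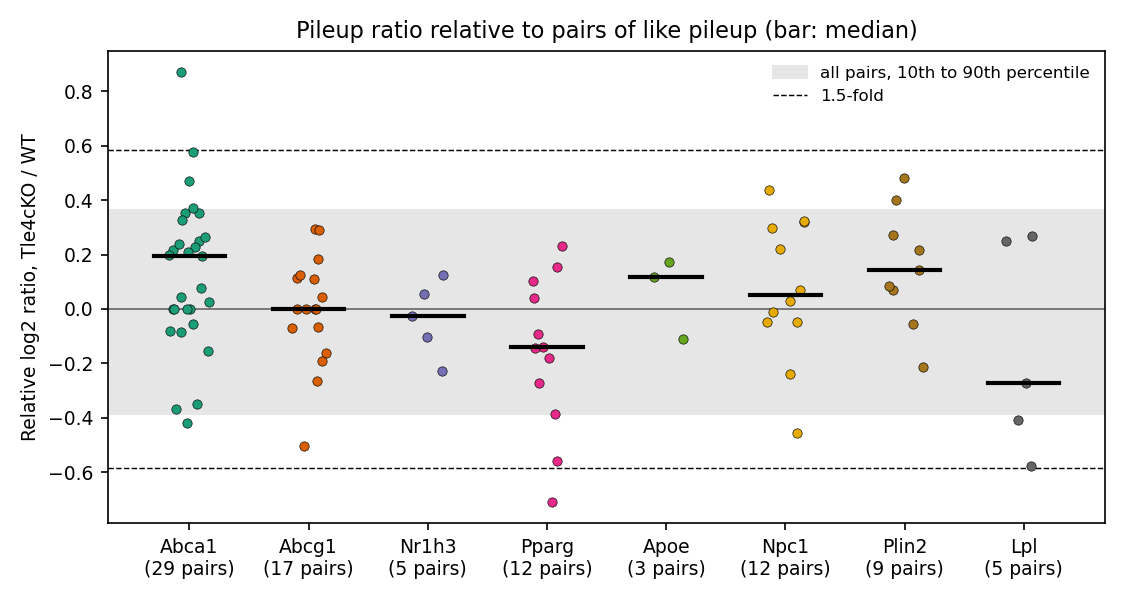
Relative log2 pileup ratio, Tle4cKO over WT after subtraction of the median of pairs of like pileup (y axis), for each pair at the 8 genes (x axis); bars are medians, the grey band holds the 10th to 90th percentile of all pairs and dashed lines mark 1.5-fold. With the 10 kb flanks Abca1 has a median of 0.19 and Lpl of -0.27, against 0.08 and 0.26 within the gene spans alone. The Lpl span value rests only on the pairs with pileups of 40 and 48 and of 17 and 20 (Tle4cKO and WT). In the plot 1 point lies beyond each dashed line.

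Npc1 encodes the membrane protein that hands cholesterol out of the late endosome and lysosome. The gene lies at chr18:12189694-12236506 and held 17 Tle4cKO and 14 WT peaks. Rmc1, at chr18:12168689-12198675, overlaps its low-coordinate end and fills the flank on that side. The highest pair, in the gene body, had pileups of 166 in Tle4cKO and 201 in WT with summits 2 bp apart, and was the highest of all 92 pairs. The pair across the high-coordinate gene end had 141 in Tle4cKO and 176 in WT. Relative log2 ratios were -0.05 and -0.01. Of the 12 pairs 7 lay above and 5 below, with a median of 0.05, against -0.03 within the gene span alone. The pair furthest above had pileups of 47 in Tle4cKO and 50 in WT, and the Tle4cKO peak was 210 bp wide against 456 bp in WT, with summits 1 bp apart. The Npc1 window had 5 Tle4cKO-only peaks and 2 WT-only peaks of pileup 15. The highest Tle4cKO-only peaks, with pileups of 25 and 23, lie close together in the flank at chr18:12183912-12184122 and chr18:12183305-12183737, within Rmc1. Another, of pileup 13 at chr18:12194897-12195096, lies where Npc1 and Rmc1 overlap.

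Plin2 coats lipid droplets and is abundant in lipid-loaded macrophages. The gene lies at chr4:86626910-86670217 and was the member with the most uneven peak numbers, 9 in Tle4cKO and 15 in WT. All 9 Tle4cKO peaks were shared, and 5 WT peaks were WT-only. The start-site pair had pileups of 114 in Tle4cKO and 134 in WT, widths of 1902 and 1497 bp and summits 5 bp apart. The pairs upstream of the start had 68 in Tle4cKO and 108 in WT, 43 and 65, and 43 and 52, and a pair 37.3 kb downstream had 66 and 87. Their relative log2 ratios ranged from -0.21 to 0.27, so the shared peaks did not share a direction. Of all 9 pairs 7 lay above the ratio of like pairs, with a median of 0.14 (0.27 within the gene span alone), and 93.0% of the genes with 9 to 17 pairs had a lower median.

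The highest WT-only peak of the 8 genes lay in Plin2 at chr4:86665847-86666089, 2398 bp from the nearest Tle4cKO peak, with a pileup of 52 at the 68.3rd percentile of its list. Its width was 243 bp. Among WT peaks reaching a pileup of 40, 2.38% of the whole list and 2 of 48 at the 8 genes were WT-only, this peak and the one in Nr1h3. Among the 770 such peaks of at most 243 bp, limits chosen after this peak was seen, the share was 57.5%. The other WT-only peaks at Plin2 had pileups of 8 to 14. The highest list-only peak of each list, that of pileup 52 at Plin2 and that of Abca1, was thus narrow. The WT-only peak of pileup 42 in Nr1h3 was wider, at 436 bp. In both libraries narrow high peaks were in 1 list only more often than wide ones, at width limits taken from the Plin2 and Abca1 peaks themselves.

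Lpl, lipoprotein lipase, releases fatty acids from triglyceride-rich lipoproteins and is secreted by macrophages as well as adipocytes. The gene lies at chr8:68880555-68906932 and held 6 Tle4cKO and 5 WT peaks, of which the highest had pileups of 40 in Tle4cKO and 63 in WT. In order along the chromosome the 5 pairs had pileups of 13, 40, 17, 17 and 33 in Tle4cKO, against 22, 48, 20, 38 and 63 in WT. All 5 were lower in Tle4cKO and none was a strong peak in either list. The pair across the low-coordinate gene end had the highest pileup in Tle4cKO, 40 against 48 in WT, and lay above the ratio of like pairs by 0.27 on the log2 scale. The 2 pairs in the high-coordinate flank lay below it. Their pileups of 17 in Tle4cKO and 38 in WT gave a ratio of 0.447 (0.237 to 0.812), and those of 33 and 63 gave 0.524 (0.333 to 0.81), where like pairs had 0.667 and 0.695. The first had a relative fold of 0.671, just inside the limit of 1.5-fold. The median of the 5 pairs was -0.27, and 4.12% of the genes with 3 to 5 pairs had a lower median. Within the gene span alone, where only the pairs of 40 and 48 and of 17 and 20 remain, the median turned to 0.26. It was -0.07 over the 2 pairs in which both pileups were at least 20.

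Peak widths were closer between the genotypes where peaks were higher. Paired peaks at the 8 genes had a median width of 769.5 bp in Tle4cKO and 823 bp in WT, and the Tle4cKO peak was the narrower in 62 of 92 pairs, or 67.4%, where 69.5% of all pairs were. The median log2 width ratio was -0.09 over these pairs and -0.10 over all pairs. It was -0.05 where both pileups were at least 20 and -0.46 among the lower pairs. Summits lay a median of 75 bp apart, against 44 bp over all pairs, and 51 of 92 lay within 100 bp, where 67.3% of all pairs did. The median was 123 bp at Abca1 and 16 bp at Nr1h3, the gene whose shared peaks were all strong. Without Abca1 the median was 45 bp.

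Most gene ends of the group had a peak nearby. Of the 16 ends of the 8 genes, 12 had a Tle4cKO peak and 13 a WT peak within 1000 bp. The share over the ends of all genes was not computed, so this count is not a result about these genes. Some ends also lie at other genes. The Nr1h3 ends lie at Madd and Acp2, the high-coordinate Apoe end at Tomm40 and the low-coordinate Npc1 end inside Rmc1. The ends that differed were the far end of Abca1, with a WT peak of pileup 28, the high-coordinate end of Abcg1, with a WT peak of pileup 32, and the far end of Pparg, with a Tle4cKO peak of pileup 9. The Abcg1 peak overlapped a Tle4cKO peak of pileup 22 that began further out. Of the 10 start windows listed for Abca1, Nr1h3, Pparg, Apoe and Plin2, 9 overlapped a peak in both lists, where 45.2% of all windows did. The Nr1h3 windows share a WT peak, as do those of Apoe and the upstream windows of Pparg. The windows are therefore not separate cases.

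A wider list of 58 genes of cholesterol and lipid handling, all found in the gene table and also chosen with earlier results known, was counted in the same way. Together they held 522 Tle4cKO and 521 WT peaks, of which 93 and 105 were in 1 list only, or 17.8% and 20.2%, beside the 21.3% and 25.9% of all protein-coding genes. More Tle4cKO-only than WT-only peaks lay at 17 genes, more WT-only at 22, and equal numbers at 19. Over all protein-coding genes the numbers were 4991, 7126 and 9766. Among the genes with more Tle4cKO-only peaks were Rxra, the common partner of LXR and PPAR, with 8 Tle4cKO-only and 5 WT-only peaks, and Soat1, which esterifies cholesterol for storage, with 4 and 1. Among those with more WT-only peaks, the difference was largest at Lipa, the lysosomal acid lipase, with 1 Tle4cKO-only and 5 WT-only peaks, and at Ppargc1b, a coactivator of PPAR and ERR receptors, with 0 and 4. Cd36, the scavenger receptor for oxidised LDL, followed with 6 and 9, and Insig1, Sqle, Stard3, Dgat1 and Acsl1 had the same difference as Cd36. Over 410 pairs the median relative log2 ratio was 0.04 and 12 pairs were past 1.5-fold in each direction, where 7.32% of all pairs were past it in either.

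By role, the sterol-sensing group of 11 genes, which includes Nr1h2, Srebf1, Srebf2 and Mylip, had 35 of 131 peaks in the Tle4cKO list only, or 26.7%, and 23 of 115 in the WT list only, or 20%. The synthesis and uptake group of 7 genes, which includes Sqle, had 9 of 52 in Tle4cKO only, or 17.3%, and 17 of 59 in WT only, or 28.8%. The WT share lies near the 25.9% of all protein-coding genes. Contrasts between the groups were not tested and are not a result about these roles. Sqle, an enzyme of cholesterol synthesis, had 1 in Tle4cKO only and 4 in WT only. The fatty acid and storage group of 17 genes had 20 of 160 in Tle4cKO only, or 12.5%, and 37 of 170 in WT only, or 21.8%, both shares lying below those of all protein-coding genes. More WT-only peaks lay at 10 of its genes and more Tle4cKO-only at 3. The lysosome and ester group had 14 of 87 in Tle4cKO only, or 16.1%, and 16 of 91 in WT only, or 17.6%. The efflux and HDL group had 7 of 38, or 18.4%, and 5 of 34, or 14.7%. For the apolipoprotein and lipase group the counts were 5 of 29, or 17.2%, and 3 of 26, or 11.5%. The desaturase group had 5 of 34 in each list, or 14.7%. The shares of these last groups all lay below those of all protein-coding genes. The median of the genes' relative log2 ratios lay between 0.02 and 0.12 in all 7 groups. The windows of Apoc1, Apoc2, Apoc4 and Apoe overlap, as do those of Plin4 and Plin5, so neighbouring genes share peaks in the counts by group.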

How the data were processed

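ATAC-seq peak lists of 1 Tle4cKO and 1 WT library were used. Per the file headers, the authors deposited for each library the position, width, summit and pileup of every peak; the pileup, a signal, takes whole values of 7 or more, and there is 1 list per library. Cells of 2 mice were pooled before library preparation, per the labels' protocols. The build is mm10 and the tools named include MACS2 2.1.1, Bowtie2 2.2.5 and cutadapt 1.14, per the submitters' processing notes. No source used here states calling thresholds, duplicate handling, read shifting, scaling or depth, and unequal depth and a fixed threshold could each move peak numbers and widths.

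Genes and start windows came from RefSeq tables of GRCm38.p6. Peaks overlapping by at least 1 bp counted as shared. Pairs, ratios relative to 50 bins of like pileup and Clopper-Pearson intervals were computed with Python 3.11.15, numpy 2.4.6, pandas 2.3.3 and scipy 1.17.1, and the steps were tested on simulated lists. A pair belonged to a gene when either of its peaks lay in the window. The genes, lists and motifs were chosen with earlier results of these data known. Described for each gene were its end peaks, its highest pair, pairs past 1.5-fold and its highest list-only peaks, and from the wider list the 3 genes with the largest difference in each direction, with ties, of which some are not reported here; other pairs and genes were chosen after their values were seen. Alternatives changed the flank, the overlap, the pileup minimum, the bins and the gene-end window.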

Additional observations from a re-analysis of the deposited data

How the results depend on the processing

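No paired analysis was possible because each genotype has 1 library and the labels give no replicate numbers that pair samples. The counts of list-only peaks depended on weak peaks. A single minimum on unscaled pileups does not cut the lists alike. A pileup of 20 stood at the 50.4th percentile of the Tle4cKO list and at the 38.7th of the WT list. Shifts between the lists under a minimum cannot be told apart from this, and minima matched to each list were not tried. At the 8 genes, a pileup minimum of 15 left 11 Tle4cKO-only and 19 WT-only peaks of 26 and 31, and a minimum of 20 left 4 and 11. At Abca1 the difference of Tle4cKO-only minus WT-only counts, 2 over all peaks, was -3 with a minimum of 15 and -6 with a minimum of 20. In the wider list a minimum of 20 left 6 Tle4cKO-only and 28 WT-only peaks. Counted without flanks there were 71 in Tle4cKO only and 56 in WT only, against 93 and 105 with them. The counts at the 8 genes stayed within 1.5 times under the other flanks and overlap rules, with 18 to 37 Tle4cKO-only and 23 to 45 WT-only peaks.

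Pairs past 1.5-fold at the 8 genes numbered 1 higher and 1 lower in Tle4cKO. Relative to the median ratio of all pairs they numbered 3 and 3, with 20 bins 1 and 2, with 50 kb on either side 2 and 3, and with both pileups at least 20 they numbered 1 and 0. The median relative log2 ratio over the pairs lay between 0 and 0.05 under the bins, flanks and minimum tried. The medians of single genes moved with the flanks: within the gene spans alone the median was 0.26 at Lpl (-0.27 with flanks), -0.03 at Npc1 (0.05), 0.01 at Nr1h3 (-0.03), 0.08 at Abca1 (0.19), 0.00 at Apoe (0.12) and 0.27 at Plin2 (0.14), and the cause was not tested. Relative to the median ratio of all pairs it was 0.12 at Abca1, 0.03 at Apoe, 0.06 at Plin2, 0.14 at Npc1, 0.02 at Nr1h3 and -0.21 at Pparg. The median distance between summits was 41.5 bp where both pileups were at least 20, against 75 bp over all pairs. Read totals are unknown, which limits what weak peaks in 1 list can show.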
